A study of Homo sapiens with 6 samples.

Results

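Integrins and laminin-332 are represented here by 9 genes, picked by symbol from the gene table: the integrin beta subunits ITGB1, ITGB4 and ITGB5, the integrin alpha subunits ITGA2, ITGA3, ITGA6 and ITGAV, and the laminin-332 chains LAMA3 and LAMB3. All 9 were found among the 11187 protein-coding genes of the table. The study made RNA-seq libraries from AGS cells, an established human gastric adenocarcinoma line, transfected transiently with either NC or miR-3648 mimics. Each group held 3 libraries. All cells were AGS of a single line, grown in the same serum-containing medium, so the groups differ by the transfected RNA alone as far as the labels tell. The nature of NC, the mimic dose and the time of harvest are not stated in the labels. The title of the series puts miR-3648 in a loop with FRAT1, FRAT2 and c-Myc that bears on metastasis and invasion, and integrins with their laminin ligands are the contacts between an epithelial cell and its basement membrane.

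Integrins are receptors made of an alpha and a beta subunit, which leave the endoplasmic reticulum as a pair. ITGB1 is the common partner of many alpha subunits: with ITGA2 it binds collagen and laminin, with ITGA3 and ITGA6 it binds laminins, and with ITGAV it binds RGD-containing matrix proteins. ITGB4 pairs with ITGA6 and nucleates hemidesmosomes, which anchor keratin filaments to laminin-332. ITGB5 pairs with ITGAV and binds vitronectin. Laminin-332 is a basement membrane laminin whose alpha and beta chains are encoded by LAMA3 and LAMB3, secreted by epithelial cells and prominent at the invasive edge of carcinomas.

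The sequence of miR-3648 and the places where its seed could pair with the 9 transcripts are shown first, since they define what a direct target would look like. The mature microRNA is taken from RefSeq on GRCh38.p14, where it lies on chromosome 21, and its seed, bases 2 to 8 from the 5′ end, is in capitals.
hsa-miR-3648: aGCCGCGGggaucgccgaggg
A transcript site that pairs with the whole seed (7mer-m8) reads CCGCGGC, and the alternative with an A opposite the first base (7mer-A1) reads CGCGGCA, 6 of whose bases it shares. No 3′ UTR of the 9 genes held either word on the transcript strand, in UTRs of 401 (LAMB3) to 4180 (ITGA2) nucleotides, and the 6-base core CGCGGC was absent from them as well. Among 10213 tested genes with a GENCODE v29 coding transcript, 2.11% carried a 7mer site in the longest 3′ UTR. In the longest coding sequence of each gene, 2 of the 9 genes had a 7mer site, ITGAV with 2 and LAMA3 with 1, against 14.3% of tested genes. The 3 coding sites are printed with 11 bases on either side and the site in capitals, counted from the start codon.
ITGAV, coding bases 13 to 19: tggcttttccgCCGCGGCgacggctgcgc
ITGAV, coding bases 39 to 45: cgcctcggtccCCGCGGCctcccgcttct
LAMA3, coding bases 122 to 128: ggatcccggggCCGCGGCcgggctcagcc
All 3 lie near the start of the longest coding sequence of the gene, in stretches rich in G and C. For LAMA3 that sequence has 10002 nucleotides. Shorter coding transcripts were not searched, so the LAMA3 transcript that supplies laminin-332 need not hold the site. A match to the word is a description and does not show pairing. As given below, ITGAV was at 11.03 to 16.0 FPKM in NC and 16.5 to 17.0 FPKM in mimic libraries. LAMA3 was at 18.3 to 21.6 FPKM in NC and 19.5 to 20.2 FPKM in mimic libraries. Whether miR-3648 acts on these sites was not tested.

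Values are FPKM, which divide the fragments of a gene by its length and by the size of the library, so levels can be compared between genes. The depth of the libraries is unknown. The AGS label was checked on epithelial markers: EPCAM lay between 177 and 206 FPKM and the keratin genes KRT8, KRT18 and KRT19 between 146 and 326 FPKM in the 6 libraries, while E-cadherin (CDH1) was low, at 2.48 to 4.20 FPKM. Of the other 2 of the 7 epithelial markers, CLDN4 varied from 0.841 to 8.55 FPKM among libraries, and VIL1 was at 30.4 to 34.4 FPKM in NC and 44.5 to 47.5 in mimic libraries (limma adjusted p = 0.061). Summed over the markers of each list that the table holds, fibroblast markers (2 of 8) reached 4.002 to 4.19 FPKM in NC and 3.88 to 4.28 in mimic libraries, leukocyte markers (3 of 6) 6.98 to 8.05 and 5.69 to 6.10, and the endothelial marker ESAM (1 of 6) 1.95 to 2.96 and 1.87 to 2.84. NC replicate 3 stood apart. Its Pearson's r with NC replicates 1 and 2, over log2(FPKM + 1) of the tested genes, was 0.971 and 0.964, against 0.982 between those replicates and 0.978 to 0.979 with the mimic libraries. The values of each of the 9 genes are therefore given with and without it, and those of other results where a call or the size depended on it.

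All 9 genes were expressed well above the filter of 1 FPKM. ITGB1 was the most abundant of them, at 73.0 ± 7.88 FPKM with NC and 98.3 ± 9.86 FPKM with mimics (SD, n = 3 each), above 97.0% of tested genes by its mean over the 6 libraries. ITGA6 followed at 48.1 ± 4.48 and 46.9 ± 0.907 FPKM. In NC libraries ITGB1, ITGA6 and the pair of ITGA2 and LAMB3 formed separate steps, while ITGA2 and LAMB3 overlapped each other. Below them LAMA3, ITGA3, ITGB5, ITGB4 and ITGAV each overlapped the next in the order. ITGAV, the lowest there at 13.2 ± 2.54 FPKM, still exceeded 73.8% of tested genes by its mean over the 6 libraries. In mimic libraries the order was ITGB1, ITGA6, LAMB3, ITGA2, LAMA3, ITGAV, ITGB5, ITGA3 and ITGB4, and there ITGAV overlapped ITGB5, and ITGB5 overlapped ITGA3. Of 19 other integrin subunit genes looked for, the table holds 3: ITGA5, the fibronectin receptor subunit, at 8.02 to 10.9 FPKM, ITGAE at 2.40 to 2.63 FPKM and ITGA7 at 0.939 to 1.54 FPKM. The remaining 16 subunits are not analysed here. Among laminin chains, LAMC1 and LAMB1, which belong to other laminins, were above LAMA3 and LAMB3 in every library.

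**Figure D1:**
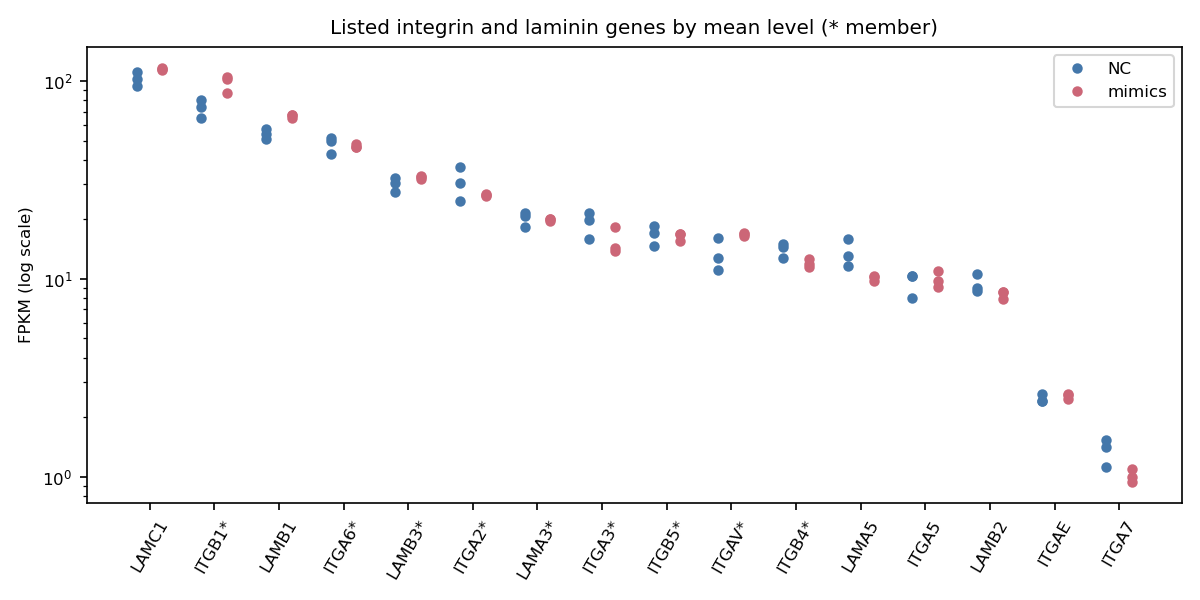
FPKM of each listed integrin and laminin gene in the 3 NC (blue) and 3 mimic (red) libraries, on a log axis, ordered by the mean over the 6 libraries; asterisks mark the 9 genes. ITGB1 is the highest integrin gene, at 64.8 to 105 FPKM, and the integrin genes outside the selection lie at or below 10.9 FPKM.

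Mimic libraries were compared with NC libraries gene by gene with limma on log2(FPKM + 1), two-sided, with Benjamini-Hochberg adjustment over 10286 tested genes. None of the 9 genes passed an adjusted p of 0.05, where 0.408% of tested genes (42) did, 0.233% higher and 0.175% lower in mimic libraries. An unadjusted p under 0.05 was reached by 3 of the 9 (ITGB1, ITGAV and ITGB4), against 14.6% of tested genes. The same 3 had groups that did not overlap, ITGB1 and ITGAV with all mimic values higher and ITGB4 with all mimic values lower. Over tested genes 8.68% did not overlap with mimics higher and 13.5% with mimics lower, 22.2% in all. The median log2 fold change of the 9 was -0.023, with 3 positive and 6 negative values, beside a median of -0.0046 over all tested genes. The labels do not say whether replicates were separate cultures, so the p-values rest on library-to-library spread that may be technical only.

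**Figure D2:**
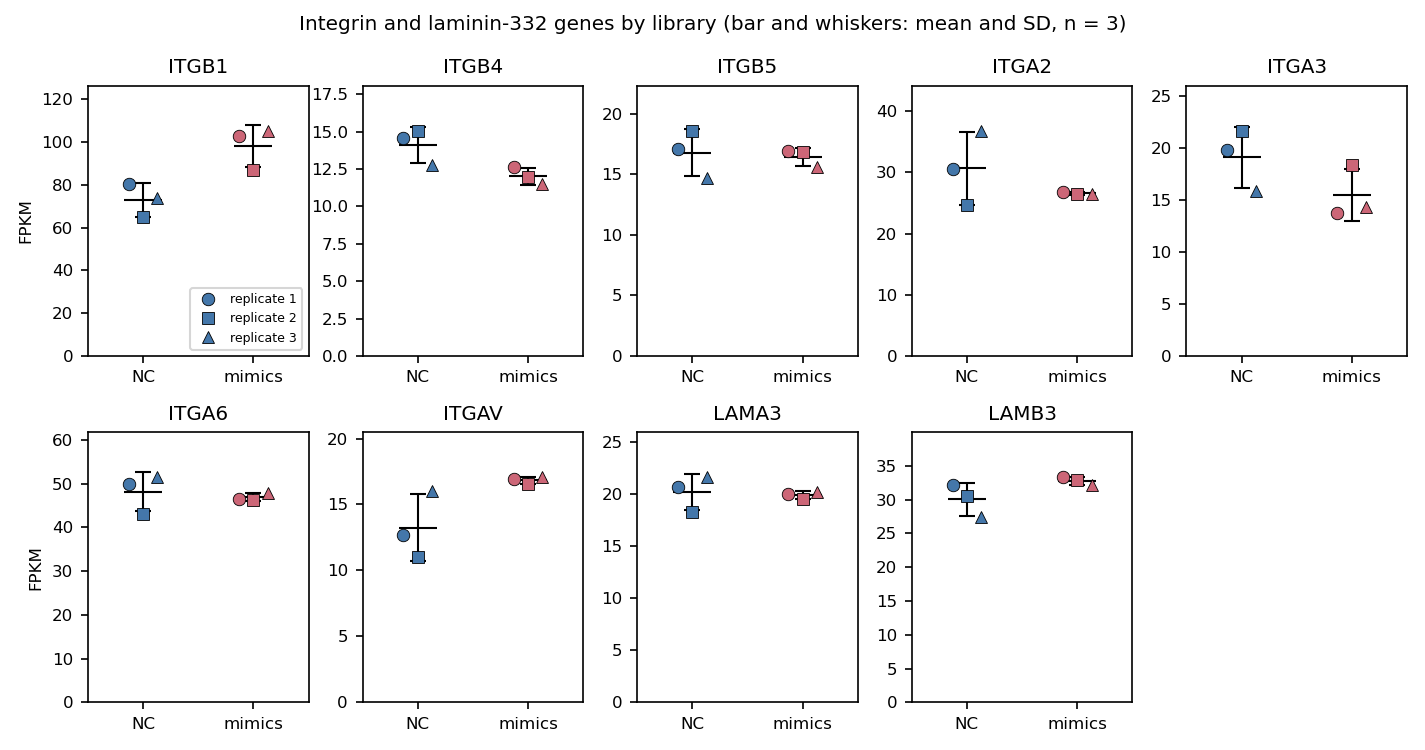
FPKM of the 9 genes in each NC (blue) and mimic (red) library, with replicates told apart by marker shape; the horizontal bar and whiskers are the mean and SD of 3 libraries. All mimic points lie above all NC points for ITGB1 and ITGAV and below them for ITGB4. The SD is larger in NC than in mimic libraries for every gene except ITGB1.

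Among the beta subunits, ITGB1 and ITGB4 were measured in opposite directions. ITGB1 was at 80.5, 64.8 and 73.8 FPKM in NC replicates 1, 2 and 3 and at 103, 87.0 and 105 FPKM in mimic replicates 1, 2 and 3. The lowest mimic library, replicate 2, lay above the highest NC library, replicate 1. The log2 fold change was 0.42 (SE 0.11, 95% interval 0.17 to 0.68), and it did not pass the test (limma adjusted p = 0.20). Without NC replicate 3 it was 0.43 (limma adjusted p = 0.069). ITGB1 lies on the minus strand of chromosome 10 (GRCh37, 33189247 to 33294720, ENSG00000150093).

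ITGB4, the hemidesmosomal beta subunit with a long cytoplasmic tail, was at 14.6, 15.04 and 12.8 FPKM in NC replicates 1, 2 and 3. In mimic replicates 1, 2 and 3 it was at 12.6, 12.0 and 11.5 FPKM. The gap between the groups was narrow, since NC replicate 3 lay next to mimic replicate 1. ITGB4 had a log2 fold change of -0.21 (SE 0.09, 95% interval -0.42 to -0.01, limma adjusted p = 0.33). Without NC replicate 3 it was -0.28 with a limma adjusted p of 0.042, in a setting where 1527 of 10286 genes (14.8%) passed, 7.76% higher and 7.09% lower. ITGB4 (chromosome 17, 73717408 to 73753899, plus strand, ENSG00000132470) overlaps GALK1, a gene of the opposite strand. Whether the authors' quantification used strand is not given in the sources used here.

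ITGB5, the vitronectin receptor subunit, measured 17.1, 18.6 and 14.7 FPKM in NC replicates 1, 2 and 3 and 16.9, 16.8 and 15.6 FPKM in mimic replicates 1, 2 and 3. The mimic values lay within the NC range. Its log2 fold change was -0.023 (95% interval -0.26 to 0.21, limma adjusted p = 0.92), and changes within that interval could not be told from none. Leaving out NC replicate 3 gave -0.11 (limma adjusted p = 0.28). Its gene is on chromosome 3 (124480795 to 124620265, minus strand, ENSG00000082781).

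Among the alpha subunits, ITGAV had higher values in mimic libraries, ITGA2 and ITGA3 had lower means, and ITGA6 was close to level. ITGAV, the alpha subunit of RGD-binding integrins and the partner of ITGB5, was at 12.7, 11.03 and 16.0 FPKM in NC replicates 1, 2 and 3. In mimic replicates 1, 2 and 3 it was at 16.9, 16.5 and 17.0 FPKM. The mimic libraries were tightly grouped and NC replicate 3 was close to them, while NC replicates 1 and 2 were lower. Its log2 fold change was 0.34 (SE 0.13, 95% interval 0.04 to 0.64, limma adjusted p = 0.30). It was 0.47 without NC replicate 3, with a limma adjusted p of 0.028, in the setting where 14.8% of tested genes passed. ITGAV is on chromosome 2 (187454792 to 187545628, plus strand, ENSG00000138448).

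ITGA2, which with ITGB1 forms a collagen receptor, measured 30.5, 24.7 and 36.8 FPKM in NC replicates 1, 2 and 3 and 26.8, 26.4 and 26.5 FPKM in mimic replicates 1, 2 and 3. The 3 mimic values lay close together inside the NC range, whose top was NC replicate 3. This gave a log2 fold change of -0.18 (SE 0.13, 95% interval -0.50 to 0.14, limma adjusted p = 0.55), and of -0.05 without NC replicate 3. ITGA3, the laminin-332 receptor subunit that pairs with ITGB1, measured 19.8, 21.6 and 15.9 FPKM in NC replicates 1, 2 and 3 and 13.8, 18.3 and 14.3 FPKM in mimic replicates 1, 2 and 3. Mimic replicate 2 lay above NC replicate 3, so the groups overlapped. ITGA3 had a log2 fold change of -0.29 (SE 0.15, 95% interval -0.63 to 0.06, limma adjusted p = 0.40), and -0.41 without NC replicate 3 (limma adjusted p = 0.087). ITGA2 is on chromosome 5 (52285156 to 52390609, plus strand, ENSG00000164171) and ITGA3 on chromosome 17 (48133332 to 48167845, plus strand, ENSG00000005884).

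ITGA6, which serves both ITGB1 and ITGB4 as a laminin-binding subunit, measured 49.9, 43.0 and 51.4 FPKM in NC replicates 1, 2 and 3 and 46.6, 46.2 and 47.9 FPKM in mimic replicates 1, 2 and 3. Mimic values lay inside the NC range. The log2 fold change was -0.032 (SE 0.08, 95% interval -0.23 to 0.16, limma adjusted p = 0.86), and 0.017 without NC replicate 3. The gene is on chromosome 2 (173292082 to 173371010, plus strand, ENSG00000091409).

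The laminin-332 genes LAMA3 and LAMB3 had log2 fold changes of opposite sign, neither past the test. LAMA3, which encodes the alpha chain that integrins bind, measured 20.7, 18.3 and 21.6 FPKM in NC replicates 1, 2 and 3 and 20.1, 19.5 and 20.2 FPKM in mimic replicates 1, 2 and 3. The mimic values lay inside the NC range, with a log2 fold change of -0.015 (95% interval -0.21 to 0.18, limma adjusted p = 0.94), and 0.033 without NC replicate 3. LAMB3, the beta chain, measured 32.2, 30.6 and 27.4 FPKM in NC replicates 1, 2 and 3 and 33.3, 32.9 and 32.1 FPKM in mimic replicates 1, 2 and 3. Mimic replicate 3 lay just below NC replicate 1, so the groups overlapped, and the log2 fold change was 0.12 (SE 0.08, 95% interval -0.06 to 0.31, limma adjusted p = 0.49). Leaving out NC replicate 3 gave 0.059 (limma adjusted p = 0.42). LAMA3 is on chromosome 18 (21269407 to 21535030, plus strand, ENSG00000053747) and LAMB3 on chromosome 1 (209788215 to 209825811, minus strand, ENSG00000196878). ITGB4 was the single gene of the 9 with a listed overlapping gene.

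**Figure D3:**
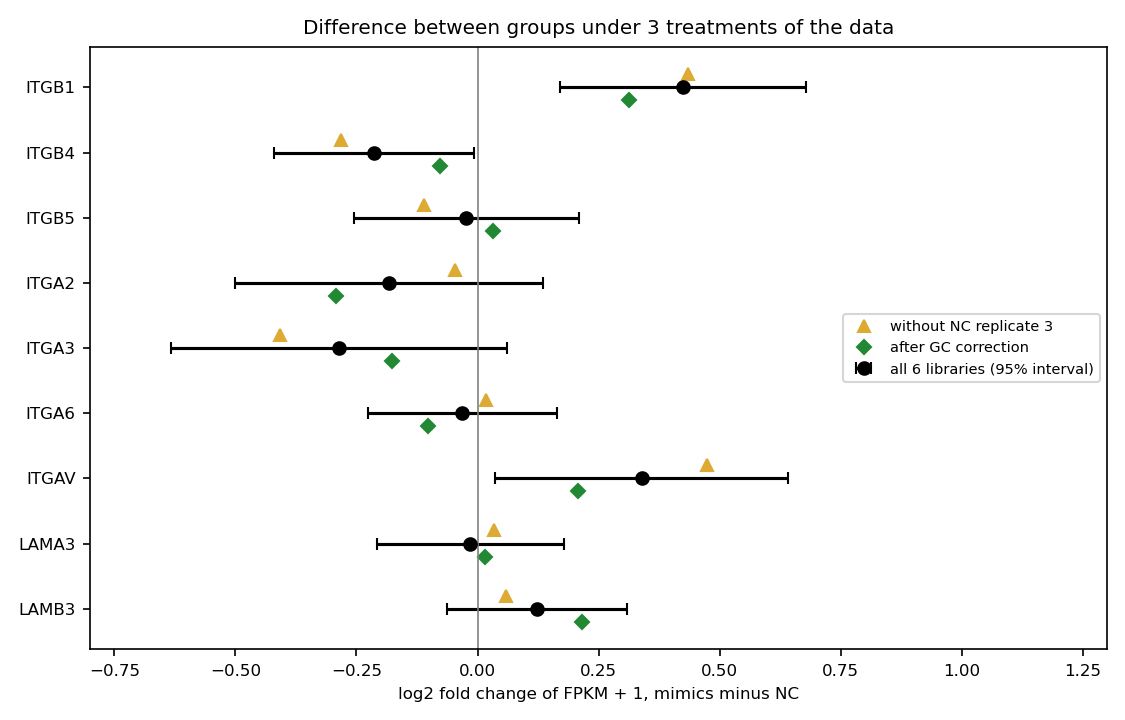
Log2 fold change (mimics minus NC, on log2(FPKM + 1)) of the 9 genes: black points with 95% intervals are from all 6 libraries, triangles leave out NC replicate 3, and diamonds are corrected for transcript GC content. ITGB1, ITGAV and LAMB3 are positive and ITGB4, ITGA2 and ITGA3 negative under all 3, while ITGB5 and LAMA3 change sign with GC correction and ITGA6 and LAMA3 without NC replicate 3.

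Next, 6 ratios of FPKM were taken between chains that pair or, like ITGB1 and ITGB4, compete for a partner. They were compared per library with an exact permutation test, two-sided, which for 3 against 3 cannot go below p = 0.1. The ratio of ITGB1 to ITGB4 was 5.52, 4.31 and 5.79 in NC and 8.15, 7.28 and 9.15 in mimic replicates 1, 2 and 3. All mimic ratios were higher, by 0.66 on the log2 scale (exact permutation p = 0.1, adjusted over the 6 ratios 0.2). The ratio of ITGA3 to ITGB1 was 0.246, 0.334 and 0.215 in NC and 0.134, 0.211 and 0.136 in mimic libraries, and that of ITGA2 to ITGB1 was 0.379, 0.382 and 0.498 and then 0.261, 0.303 and 0.252. In both, each mimic ratio lay below each NC ratio, with log2 differences of -0.73 and -0.62 (exact permutation p = 0.1 each, adjusted 0.2). All 3 of these ratios hold ITGB1, whose own groups did not overlap, so they are not independent of each other. The other 3 ratios overlapped between groups: ITGAV to ITGB5 at 0.809 ± 0.254 and 1.03 ± 0.0593, ITGA6 to ITGB4 at 3.44 ± 0.586 and 3.91 ± 0.241, and LAMA3 to LAMB3 at 0.677 ± 0.09995 and 0.609 ± 0.0179 (NC and mimics, SD, n = 3 each; exact permutation p = 0.3 each). After a correction for transcript GC content in each library, the log2 difference was 0.40 for ITGB1 to ITGB4, 0.19 for ITGAV to ITGB5 where it had been 0.39, and -0.021 for ITGA6 to ITGB4 where it had been 0.20. Without NC replicate 3 these 3 differences were 0.74, 0.62 and 0.32, and that of LAMA3 to LAMB3 went from -0.14 to -0.026. The difference of ITGA3 to ITGB1 was -0.50 after GC correction and -0.87 without NC replicate 3. That of ITGA2 to ITGB1 was -0.62 and -0.49.

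ITGB1 thus made up 71.8%, 65.8% and 72.9% of the summed FPKM of the 3 beta subunits in NC replicates 1, 2 and 3, and 77.7%, 75.1% and 79.5% in mimic replicates 1, 2 and 3. ITGA6 held 42.8% to 45.3% of the summed FPKM of the 4 alpha subunits in the 6 libraries. The beta sum divided by the alpha sum was 0.993, 0.980 and 0.844 in NC and 1.27, 1.08 and 1.25 in mimic libraries. No test result is given for these shares and quotients, which come from FPKM without GC correction.

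**Figure D4:**
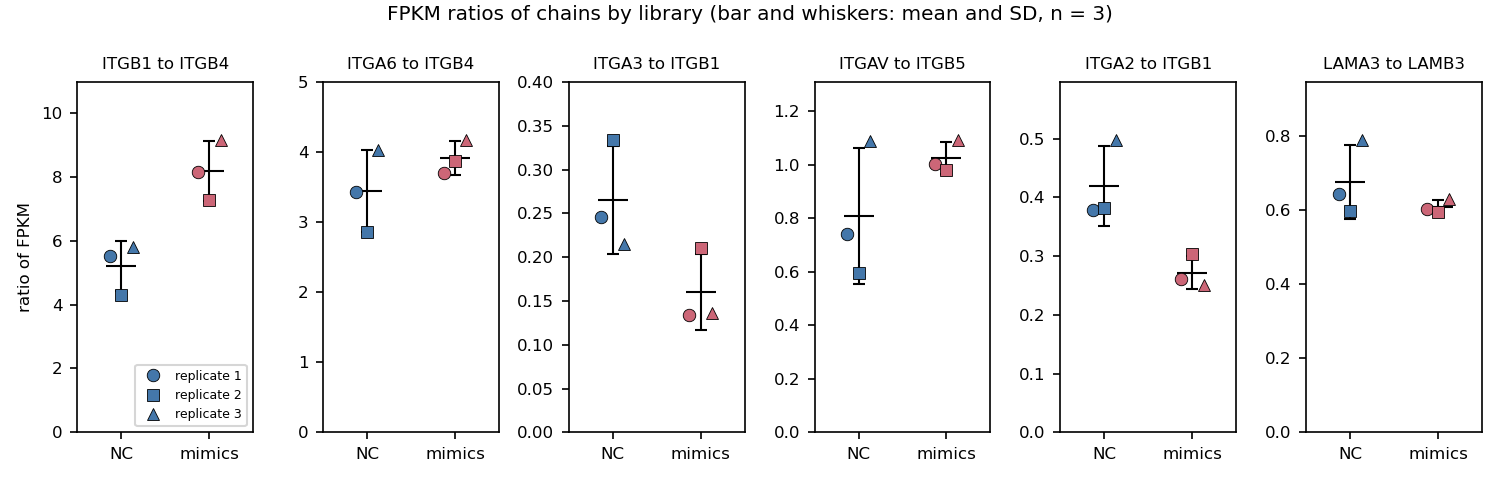
Ratio of FPKM of 6 gene pairs in each NC (blue) and mimic (red) library, each panel starting at 0; the bar and whiskers are the mean and SD of 3 libraries. ITGB1 to ITGB4 is higher in all mimic libraries, ITGA3 to ITGB1 and ITGA2 to ITGB1 are lower, and the other 3 overlap.

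The GC content of the transcripts moved with these differences. Over tested genes, the median log2 fold change was 0.10 in 3796 genes with under 45% GC in the longest coding transcript, -0.03 in 3269 genes from 45% to 55% and -0.11 in 3148 genes above. Without NC replicate 3 the medians of these classes were 0.19, -0.06 and -0.18. ITGAV (38.3% GC), ITGB1 (40.0%), ITGA2 (40.2%) and ITGA6 (42.9%) belong to the first class, LAMA3 (50.7%) and ITGB5 (54.3%) to the second, and LAMB3 (58.9%), ITGA3 (60.9%) and ITGB4 (63.7%) to the third. ITGB1 and ITGAV had positive values like most AT-rich genes, and ITGB4 and ITGA3 negative values like most GC-rich genes, whereas ITGA2, ITGA6 and LAMB3 went against the median of their class. After a correction for GC content in each library, 103 of 10213 genes passed (1.01%) and again none of the 9. The log2 fold change of ITGB1 was then 0.31 (limma adjusted p = 0.24), with 67.2 to 86.7 FPKM in NC and 83.2 to 101 in mimic libraries, so its groups overlapped. That of ITGB4 was -0.08 (limma adjusted p = 0.46) and that of ITGAV 0.21 (limma adjusted p = 0.14).

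Other genes stood out more after this correction. LAMB3 had a corrected log2 fold change of 0.22 (limma adjusted p = 0.095), with 27.9 to 30.1 FPKM in NC and 33.5 to 34.1 in mimic libraries. ITGA2 had one of -0.29 (limma adjusted p = 0.12), with 28.4 to 33.5 FPKM in NC and 25.0 to 26.4 in mimic libraries. Corrected groups did not overlap for 5 of the 9 genes (ITGB4, ITGA2, ITGA6, ITGAV and LAMB3), against 25.0% of the genes corrected. With the correction and without NC replicate 3, 1.18% of genes passed, and none of the 9.

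**Figure D5:**
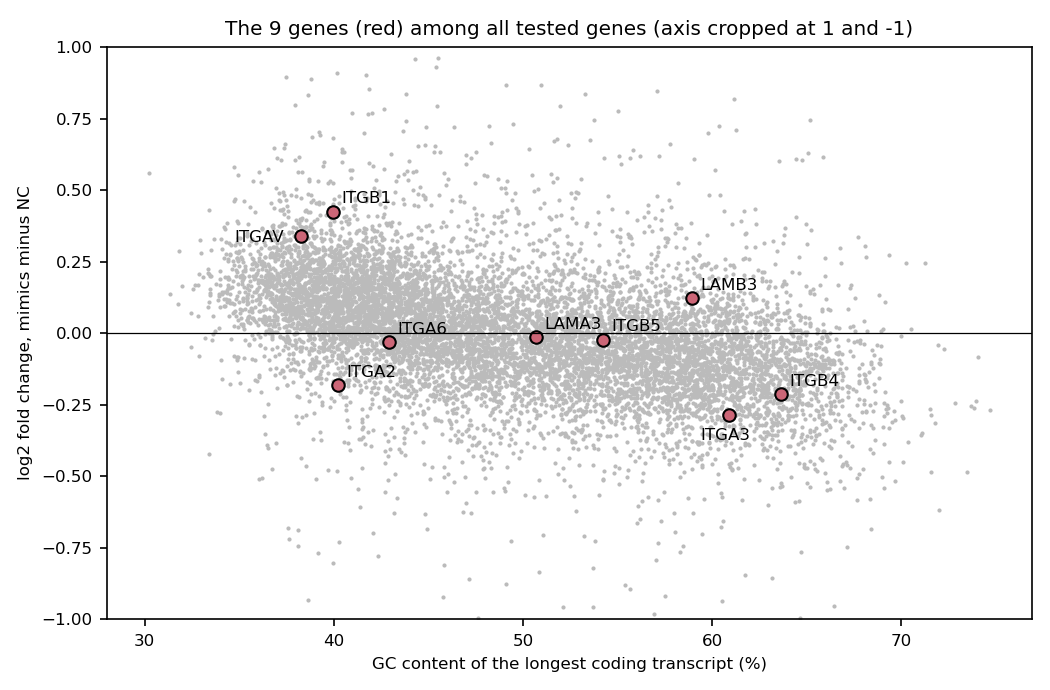
Log2 fold change (mimics minus NC, all 6 libraries) against transcript GC content for tested genes (grey) and the 9 genes (red); the vertical axis is cropped at 1 and -1, which leaves out 26 genes. The grey cloud slopes down from AT-rich to GC-rich genes, ITGB1, ITGAV, ITGB4 and ITGA3 lie on the side of 0 where their GC class lies, and ITGA2, ITGA6 and LAMB3 on the other side.

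Related genes were read from 5 lists with the same fit. Of 12 tested matrix and basement membrane genes, 2 were called higher with the mimics and none lower, where 0.408% of all tested genes were called. THBS1, encoding thrombospondin, went from 2.83 ± 0.171 to 4.95 ± 0.182 FPKM, and CTGF, a matricellular integrin ligand, from 3.95 ± 0.135 to 6.27 ± 0.119 FPKM (SD, n = 3 each; limma adjusted p = 0.036 and 0.043). The matricellular ligand gene CYR61 measured 10.5, 10.4 and 8.63 FPKM with NC and 14.5, 16.5 and 16.7 in mimic libraries (limma adjusted p = 0.073). NID1, which encodes the laminin-binding protein nidogen, measured 2.03 to 2.13 FPKM with NC and 2.88 to 3.00 FPKM with mimics (limma adjusted p = 0.14). The list had a median log2 fold change of 0.08, with 8 positive and 4 negative values from -0.31 to 0.64. Groups did not overlap for 4 genes with mimics higher and 2 with mimics lower, against 8.68% and 13.5% of all tested genes. Leaving out NC replicate 1 or 2 or any mimic library left 0 of the 12 called. Those settings called 8 to 11 of all tested genes, where the full set called 42. Leaving out NC replicate 3 gave 4, in a setting that called 14.8% of all tested genes. The values of THBS1, CTGF and CYR61 were known when the list was drawn up, so they are no independent result.

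No gene of the other laminin chains passed, though all 4 tested had groups that did not overlap, LAMB1 and LAMC1 with mimics higher and LAMA5 and LAMB2 with mimics lower. Over all tested genes 22.2% did not overlap. GC content was 49.5% for LAMB1, 48.7% for LAMC1, 66.4% for LAMA5 and 60.3% for LAMB2. After GC correction their log2 fold changes were 0.32, 0.18, -0.21 and -0.05 in that order (limma adjusted p = 0.067, 0.18, 0.25 and 0.80). LAMB1 measured 57.1, 50.8 and 53.7 FPKM with NC and 67.0, 64.7 and 67.3 in mimic libraries (log2 fold change 0.30, limma adjusted p = 0.16). LAMA5, the alpha chain of adult basement membranes, measured 15.9, 13.1 and 11.6 FPKM with NC and 10.3, 9.79 and 10.2 in mimic libraries (log2 fold change -0.38, limma adjusted p = 0.24). LAMC1 was at 103 ± 8.44 and 115 ± 1.46 FPKM and LAMB2 at 9.41 ± 1.01 and 8.35 ± 0.408 FPKM (NC and mimics, SD, n = 3 each; limma adjusted p = 0.37 and 0.48). Without NC replicate 3, where 14.8% of tested genes passed, LAMB1 was called higher and LAMA5 lower. With GC correction as well, neither was called. The 3 other integrin subunits did not pass, the smallest adjusted p being 0.33 for ITGA7.

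Genes of the hemidesmosome and of laminin-binding partners (15 tested, median log2 fold change 0.01) had no call. PLEC, which encodes plectin, the linker from ITGB4 to keratin, measured 18.3, 14.5 and 10.2 FPKM with NC and 8.65, 11.3 and 8.10 in mimic libraries. Its groups overlapped (log2 fold change -0.54, limma adjusted p = 0.31), and without NC replicate 3 it was called at -0.75 (limma adjusted p = 0.042), as 14.8% of tested genes were. With GC correction as well, 0 genes of this list were called. COL17A1, the hemidesmosomal collagen, measured 2.82, 2.35 and 2.03 FPKM with NC and 2.89, 3.04 and 2.87 in mimic libraries (log2 fold change 0.22, limma adjusted p = 0.39; 0.14 without NC replicate 3). EPB41L4B was at 3.76 ± 0.172 and 2.85 ± 0.210 FPKM, and the tetraspanin CD9, which associates with laminin-binding integrins, at 84.6 ± 3.24 and 76.3 ± 2.89 FPKM (SD, n = 3; limma adjusted p = 0.21 and 0.35).

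Adaptors and kinases that bind integrin tails (36 tested, 16 positive and 20 negative, median log2 fold change -0.05) had no call either. Groups did not overlap for 12 of them, 6 in each direction, against 8.68% of all tested genes with mimics higher and 13.5% with mimics lower. TLN2, a talin that activates integrins, measured 5.93, 5.68 and 5.01 FPKM with NC and 4.09, 3.75 and 3.96 in mimic libraries (log2 fold change -0.40, limma adjusted p = 0.15). The kindlin gene FERMT2, whose product also activates integrins, measured 2.97, 2.50 and 3.49 FPKM with NC and 5.17, 3.97 and 4.37 in mimic libraries (log2 fold change 0.47, limma adjusted p = 0.21). Neither passed with all libraries, and without NC replicate 3, where 14.8% of tested genes passed, both did, TLN2 at -0.46 and FERMT2 at 0.56 (limma adjusted p = 0.027 and 0.040). The related TLN1 and FERMT1, added after their values were seen, had log2 fold changes of -0.23 and 0.07 (limma adjusted p = 0.36 and 0.86), and TLN1 passed at -0.35 without NC replicate 3 (limma adjusted p = 0.025). The focal adhesion protein gene ZYX was at 26.9 ± 4.02 and 35.1 ± 2.63 FPKM, and RSU1, a partner of the ILK complex, at 14.6 ± 0.676 and 17.4 ± 0.569 FPKM (SD, n = 3; limma adjusted p = 0.25 and 0.23). After GC correction ZYX passed at a corrected log2 fold change of 0.53 (limma adjusted p = 0.034), as did FLNA, which encodes an integrin-binding filamin, with 0.42 (limma adjusted p = 0.035). FLNA was picked after its value was seen. With GC correction and without NC replicate 3, where 1.18% of genes passed, FLNA was the 1 adaptor gene called. TLN2, FERMT2 and TLN1 were not called there.

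Profiles over the 6 libraries were compared with those of 4023 other genes that had a mean of at least 10 FPKM, by the root mean square difference of centred log2(FPKM + 1). Closest to ITGB1 were PRSS35 (0.0961), FAM46A (0.0981) and LAMB1 (0.103). Closest to ITGB4 were CSNK1E (0.0174), HES1 (0.0220) and HNRNPA0 (0.0230). Closest to LAMB3 were MAP4 (0.0216), ZCCHC3 (0.0242) and LAMC1 (0.0336). The distances to ITGB1 were larger than those to ITGB4 and LAMB3. Profiles were not scaled, so a distance also grows with a gene's own spread over the libraries. The larger distances therefore do not show that the ITGB1 profile is unusual. LAMB1 and LAMC1, chains of the same laminins, are thus each among the 3 nearest profiles of an integrin or a laminin-332 gene, as a description over 6 libraries.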

How the data were processed

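RNA-seq libraries of AGS cells, 3 with NC and 3 with miR-3648 mimics, were grouped and numbered by their titles. The authors deposited FPKM per gene in 1 table. Per the submitters' processing notes, StringTie 1.3.3 and cutadapt were used with GRCh37. No source used here gives the aligner, the annotation, the strand setting or the rule by which genes were listed. Low values showed no whole-read steps (at most 3 of 312 genes under 0.5 FPKM shared a ratio between NC replicates 1 and 2 to 4 digits), so depth is unknown and no counting interval is given.

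Values were taken as log2(FPKM + 1). Genes with a mean of at least 1 FPKM (10286, with 901 removed) were fitted by limma 3.58.1 (R 4.3.3), letting the prior variance follow expression, two-sided, threshold 0.05 after Benjamini-Hochberg adjustment. Fold changes on this scale understate changes of low genes. On simulated libraries with 10286 genes the mimics against NC fit recovered 96 of 100 genes set 1 log2 unit apart and 43 of 100 set 0.5 apart, and falsely called 8 of the 10086 left alone. The simulation gave each gene the same spread in all 6 libraries, with no deviant library and no GC trend. Its counts therefore need not hold for these data. GC correction subtracted, in each library, a loess curve (span 0.3) of the deviations from the gene mean against transcript GC content, known for 99.3% of tested genes. Transcripts were those of GENCODE v29, which is on GRCh38 and gave no coordinates. Other computing used Python 3.11.15, scipy 1.17.1 and pandas 2.3.3.

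The genes and lists were chosen with earlier results of these data known. Named were the 9 genes, called genes of each related list or otherwise the 4 with the smallest p, and the 3 nearest profiles of ITGB1, ITGB4 and LAMB3. The alternatives were pseudocounts of 0.1 and 0.5, no filter or one at 5 FPKM, median scaling, quantile normalization, no trend, a replicate block, GC correction, and leaving out each library. One related gene is not reported here.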

Additional observations from a re-analysis of the deposited data

How the results depend on the processing

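Across 17 alternative settings, ITGB1, ITGAV and LAMB3 kept a positive and ITGB4, ITGA2 and ITGA3 a negative log2 fold change, and the limma adjusted p ranged from 0.069 to 0.53 for ITGB1, 0.042 to 0.67 for ITGB4 and 0.028 to 0.64 for ITGAV. Without NC replicate 3, 2 of the 9 genes were called, ITGB4 (-0.28) and ITGAV (0.47), where 1527 of 10286 tested genes (14.8%) passed. Leaving out single libraries gave 0 to 2 calls among the 9, 0 to 2 among other laminin chains, 0 to 4 among matrix ligands, 0 to 3 among hemidesmosome genes, 0 to 8 among adaptors, and 8 to 1527 of all tested genes, where the full set gave 42. Log2 fold changes then ranged from -0.11 to 0.049 for ITGB5, -0.11 to 0.017 for ITGA6, -0.082 to 0.033 for LAMA3, -0.28 to -0.17 for ITGB4, 0.059 to 0.17 for LAMB3 and 0.22 to 0.47 for ITGAV.

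With GC correction the signs of ITGB5 (0.033) and LAMA3 (0.016, and 0.096 without NC replicate 3) turned, the log2 difference of the ITGA6 to ITGB4 ratio turned to -0.021, the genes of the 9 with non-overlapping groups went from 3 to 5, and 103 genes were called in all (121 without NC replicate 3). It called 4 matrix genes with all libraries, and 2 adaptors (1 without NC replicate 3). A filter of 5 FPKM took THBS1, with a mean of 3.89 FPKM over the 6 libraries, out of the test and left 1 matrix gene called. Over the tested genes as a whole, same-numbered libraries did not pair (correlations of their deviations 0.0386, -0.0421 and 0.0675). A replicate block called 11 genes in all and 0 matrix genes. It lowered the SE of ITGB1 from 0.11 to 0.075 and of ITGA3 from 0.15 to 0.10. The SE also fell for ITGB5, ITGA2 and ITGAV and rose for ITGB4, ITGA6, LAMA3 and LAMB3, and none of the 9 was called. With GC correction the block called 12 and 0, the signs of ITGB5 (0.033) and LAMA3 (0.016) turning there too. Apart from the removal of THBS1 by the filter, the cause of these shifts was not tested. Unknown depth leaves the counting error of each value unknown.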
